A study of Mus musculus with 28 samples.

Results

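The IGF binding proteins were followed across the study as 6 genes, Igfbp2, Igfbp3, Igfbp4, Igfbp5, Igfbp6 and Igfbp7, which were taken by symbol from the deposited expression table. They are 6 of 17295 genes in that table, and all 6 were among the 16275 genes tested. The study sequenced messenger RNA of 14 groups of cultured mouse cells, each with 2 libraries, 28 in all. In 10 groups the cells were miNSC, the labels' name for induced neural stem cells. Fibroblasts had received M2rtTA and lentiviruses switched on by doxycycline, and colonies were picked and grown on in a neural stem cell medium with bFGF and EGF. Each origin and cocktail is taken as 1 line, since the labels do not say whether its libraries come from separate colonies. The cocktails are named by letter as in the labels, where B, K and M are factors and F is eSox17FNV, an engineered form of the transcription factor Sox17. Every cocktail held K and F. Embryonic fibroblasts (MEF) of ICR mice gave a BKF and a KF line. From MEF of the Sox2-GFP reporter strain there were KF, BKF and KMF lines. Sox2-GFP tail tips at 1.0 year of age yielded a BKF line, a KMF line and a line with all of B, K, M and F (4F) sampled at passages 8 and 18. Ear fibroblasts of Sox2-GFP mice aged 1.0 year gave another 4F line, whose passage is not stated. Without any factor there were 3 Sox2-GFP fibroblast groups, from tail tips at 1.0 year, tail tips at 2.5 years and skin at 2.5 years. NSC, the labels' name for neural stem cells, also carried no factor and came from Sox2-GFP mice of 2.5 years, with 1 library at passage 2 and 1 at passage 5.

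IGF binding proteins are secreted proteins that hold insulin-like growth factors in the space around cells and in blood. They lengthen the life of the growth factors, keep them from the IGF1 receptor, and release them when a protease such as PAPP-A cuts the binding protein. Igfbp2 is prominent in the developing brain, and its protein can also bind integrins. Igfbp3 and Igfbp5 proteins can join the acid-labile subunit in a larger complex with the growth factor. Igfbp4 protein is a main substrate of PAPP-A, Igfbp6 protein prefers IGF2 over IGF1, and Igfbp7 protein binds these growth factors weakly and lies in the matrix around vessels.

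The summed markers separated fibroblasts from the other cells, with exceptions among single markers. The summed level of 8 fibroblast markers (Col1a1, Col1a2, Pdgfrb, Thy1, Lum, Dcn, Postn and Pdgfra) was 163343 to 194331 in the fibroblast libraries, 163 to 1237 in miNSC and 676 to 1438 in NSC. Of 7 neural stem markers, Sox2, Sox1 and Olig2 were listed at 0 in every fibroblast library, and the summed level of the 7 was 374 to 732 in fibroblasts, 64688 to 150454 in miNSC and 77261 to 124781 in NSC. Sox1 was also listed at 0 in both ICR KF libraries and read 3 to 14 in the 3 Sox2-GFP embryonic lines, against 1039 and 1148 in NSC. Lum read 496 and 538 in the ICR KF line, above the skin fibroblasts at 189 and 196. The sum of 4 smooth muscle markers was 48862 to 57259 in fibroblasts and 61 to 726 in miNSC. Library totals of the normalised values ran from 15563679 to 15571626, so depth is not known. The values follow a ladder of fixed steps shared by the libraries. Above 10000 there are 15 distinct steps, which differ from their neighbours by a median ratio of 1.118. Of the members, Igfbp2 reached at least 10000 in 17 libraries, Igfbp4 in 18 and Igfbp5 in 11, so that equal values in a pair of libraries there mark the same step. Levels are compared within a gene and not between genes, because it is not stated whether the values were scaled to transcript length. Fold changes are differences of log2(value + 1), called by limma at an adjusted p (Benjamini-Hochberg over the genes tested) under 0.05. Because replicates are not stated to be separate cultures, a p-value here reflects the scatter of these libraries alone, and that scatter may be technical. The scatter is pooled over all groups in a fit, also for comparisons that hold no NSC. It thus includes the gap between the NSC libraries, which differ in passage. The median absolute log2 difference between libraries was 0.3729 in NSC and at most 0.2075 in the other groups. In Igfbp2 the NSC libraries read 2433 and 15161. Calls that changed without the NSC group are given below. In bulk RNA, fewer cells of a type and less RNA per cell cannot be told apart.

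The stretches upstream of 4 members are shown because Igfbp2 and Igfbp3 were the 2 members with the largest rises in miNSC and Igfbp6 and Igfbp7 the 2 that fell. Each is the 250 bases before a RefSeq transcription start on GRCm38.p6, read 5′ to 3′ on the gene's strand. They lie at chr1:72824230-72824479 (plus strand) for Igfbp2, chr11:7213924-7214173 (minus strand) for Igfbp3, chr15:102143936-102144185 (plus strand) for Igfbp6 and chr5:77408046-77408295 (minus strand) for Igfbp7. Capitals mark the GC box GGGCGG, the TATA box TATAAA and the CACCC box, on either strand.
Igfbp2: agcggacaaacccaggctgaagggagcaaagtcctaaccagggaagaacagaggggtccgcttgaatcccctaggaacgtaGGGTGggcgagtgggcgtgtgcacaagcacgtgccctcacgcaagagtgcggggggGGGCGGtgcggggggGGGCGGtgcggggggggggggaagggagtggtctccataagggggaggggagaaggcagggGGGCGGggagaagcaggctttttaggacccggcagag
Igfbp3: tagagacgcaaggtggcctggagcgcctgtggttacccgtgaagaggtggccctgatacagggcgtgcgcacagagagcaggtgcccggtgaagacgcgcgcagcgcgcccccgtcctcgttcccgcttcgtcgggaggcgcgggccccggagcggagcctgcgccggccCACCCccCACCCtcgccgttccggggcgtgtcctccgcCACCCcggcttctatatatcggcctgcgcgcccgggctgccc
Igfbp6: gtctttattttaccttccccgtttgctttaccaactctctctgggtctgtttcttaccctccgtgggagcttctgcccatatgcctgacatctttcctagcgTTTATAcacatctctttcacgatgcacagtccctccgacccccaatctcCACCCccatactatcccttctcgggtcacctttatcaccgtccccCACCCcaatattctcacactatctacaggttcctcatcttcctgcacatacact
Igfbp7: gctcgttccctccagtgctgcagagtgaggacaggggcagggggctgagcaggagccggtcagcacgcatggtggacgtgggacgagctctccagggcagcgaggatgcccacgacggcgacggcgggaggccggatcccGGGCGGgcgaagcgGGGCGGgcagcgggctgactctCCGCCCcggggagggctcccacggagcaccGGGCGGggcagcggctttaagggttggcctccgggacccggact
The Igfbp2 window held 3 GC boxes and the Igfbp7 window 4, and those of Igfbp3 and Igfbp6 held none. The GC box occurred in 32.74% of 32851 promoter windows of this length, the TATA box in 12.37% and the CACCC box in 52.01%. The SOX core motifs ACAAAG and ACAATG, which occurred in 16.46% and 10.69% of the windows, were found in none of the windows of the 6 members. The windows held 14, 32, 7 and 26 CpG dinucleotides for Igfbp2, Igfbp3, Igfbp6 and Igfbp7, against a median of 6 and quartiles of 2 and 16 over the windows. None of these motifs was shared by the members that rose and absent from those that fell. Igfbp2 has a second RefSeq start with a window of its own, not shown. The RefSeq start of Igfbp6 lies 176 bases upstream of its GENCODE start, so its window may not be the promoter in use. A match is a description of letters and not a binding site.

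Igfbp6 and Igfbp7 were the fibroblast members of the family. Igfbp6 (chromosome 15, 102144362 to 102149511, plus strand, GRCm38, 4 exons) read 2470 and 2601 in tail-tip fibroblasts of 1.0 year, 2034 and 1893 at 2.5 years, and 6702 and 6320 in skin fibroblasts. It was listed at 0 in both libraries of all 5 embryonic lines and of the tail-tip 4F line at passage 8. It read 1 and 2 in the tail-tip BKF line, 1 and 2 in the KMF line, 1 and 4 in the 4F line at passage 18 and 0 and 1 in NSC, and ear-derived 4F cells had 1 and 0. No library outside the fibroblasts passed 4, and every fibroblast library was at 1893 or above. The change in miNSC against fibroblasts was a log2 fold change of -11.16 ± 0.19 (SE, adjusted p = 6.3e-18 by limma, 20 libraries against 6). That size depends on the pseudocount, and it was -8.24 with a pseudocount of 10. The 3 highest groups in order of mean were skin, tail-tip at 1.0 year and tail-tip at 2.5 years. Between the 2 tail-tip ages Igfbp6 was not called (-0.37 ± 0.41, adjusted p = 0.675 by limma). It passed as lower at 2.5 years with a pseudocount of 10 (adjusted p = 0.0411).

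Igfbp7 (chromosome 5, 77349240 to 77408041, minus strand, 6 exons) read 16127 and 17984 in skin fibroblasts, 6320 and 6320 in tail-tip fibroblasts of 1.0 year, and 5540 and 5848 at 2.5 years. The induced line with the most was the Sox2-GFP embryonic KMF line with 243 and 245, followed by the tail-tip 4F line at passage 18 with 48 and 118. The tail-tip KMF line read 14 and 21, the Sox2-GFP embryonic BKF line 10 and 14, the tail-tip 4F line at passage 8 13 and 9, and the ICR KF line 8 and 10. These 4 overlap with their neighbours in the order. The lowest were the tail-tip BKF line at 8 and 5, the Sox2-GFP embryonic KF line at 4 and 8, the ear 4F line at 1 and 4, NSC at 5 and 0, and the ICR BKF line at 2 and 1. Fibroblast and other libraries did not overlap, and in miNSC the log2 fold change was -9.30 ± 0.30 (adjusted p = 2.16e-14 by limma). The 2 induced groups with the highest Igfbp7 had fibroblast marker sums of 814 and 791 (embryonic KMF) and 807 and 942 (passage 18). The ICR KF line had a higher sum, 1162 and 1237, with an Igfbp7 of 8 and 10. Endothelial markers summed to 85 to 191 in fibroblasts and 34 to 126 in miNSC. The smooth muscle sum, given above, was higher in fibroblasts, as were Igfbp6 and Igfbp7. Among miNSC that sum was highest in the ICR BKF line, 711 and 726, where Igfbp7 read 2 and 1. It was 86 and 87 in the Sox2-GFP embryonic KMF line, where Igfbp7 read 243 and 245. The part of either cell type in these levels was not tested.

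**Figure D1:**
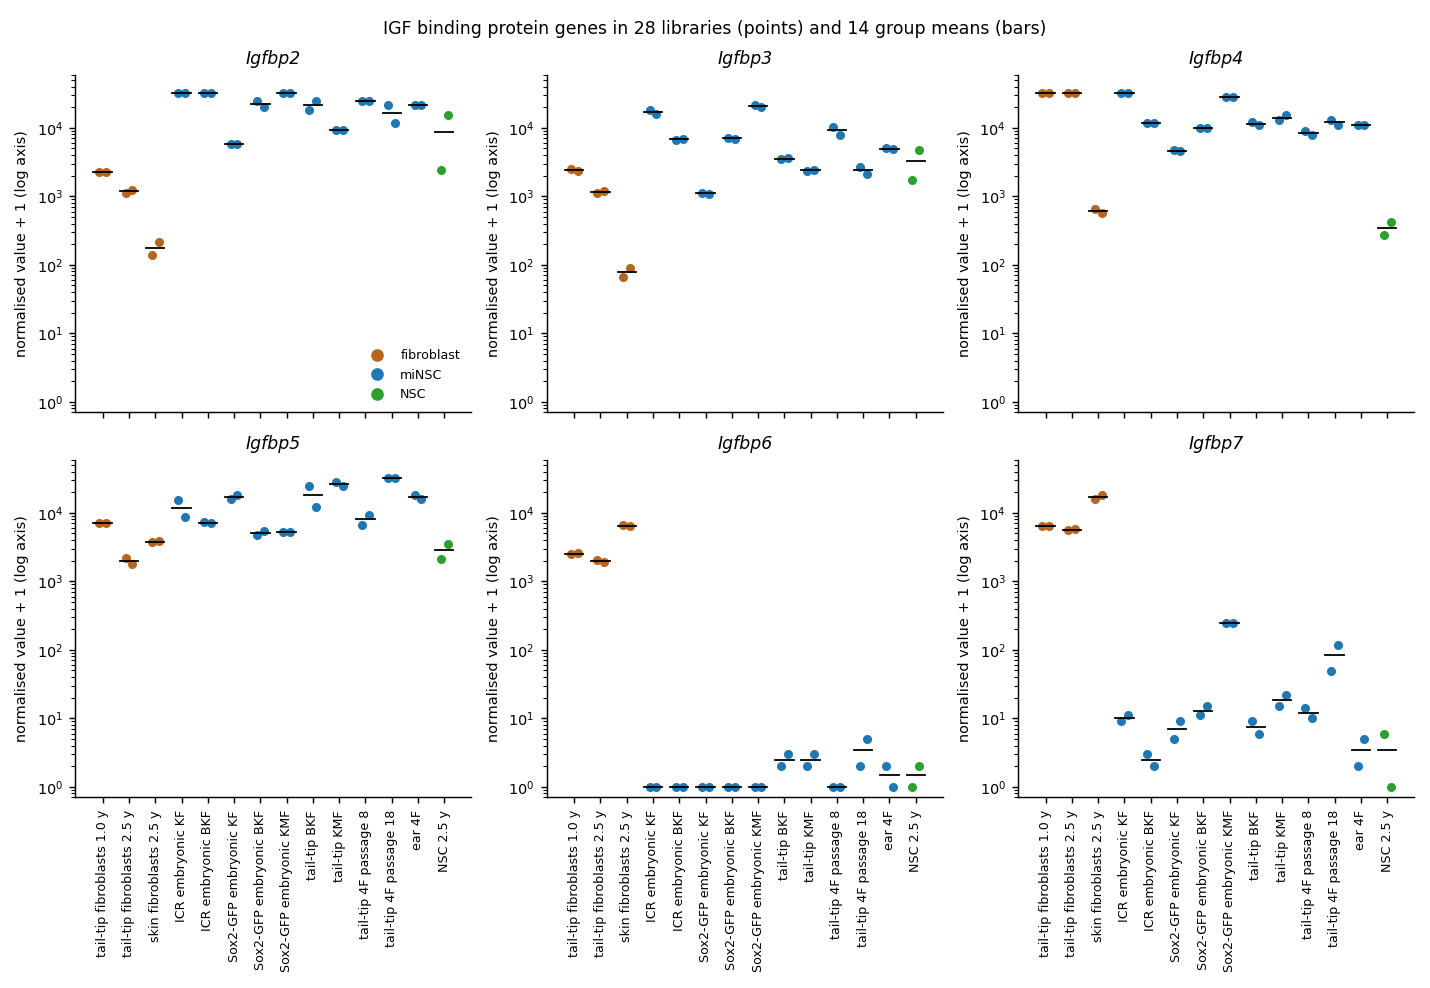
Normalised value plus 1 (log axis) of each IGF binding protein gene in the 14 groups; points are the 2 libraries of a group, bars their mean, and colour gives the cell class. Igfbp6 and Igfbp7 are high in the 3 fibroblast groups, Igfbp2 is higher in every miNSC library (5848 or more) than in every fibroblast library (2286 or less), and Igfbp4 separates the NSC and skin libraries from the rest.

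Igfbp2 and Igfbp3 rose in the induced cells. Igfbp2 (chromosome 1, 72824503 to 72852474, plus strand, 4 exons) stood at its highest step, 32716, in both libraries of the Sox2-GFP embryonic KMF line and of the ICR KF and BKF lines. It read 24590 and 24590 in the tail-tip 4F line at passage 8, 24590 and 20143 in the Sox2-GFP embryonic BKF line, 21808 and 21808 in ear-derived 4F cells, 17984 and 24590 in the tail-tip BKF line, and 21808 and 11652 in the 4F line at passage 18. Neighbours among these 5 groups overlapped. Lower down came the tail-tip KMF line at 9431 and 9431, NSC at 2433 (passage 2) and 15161 (passage 5), and the Sox2-GFP embryonic KF line at 5848 and 5848. The fibroblasts were lowest, with 2286 and 2286 at 1.0 year, 1106 and 1248 at 2.5 years, and 138 and 212 in skin. In miNSC against fibroblasts Igfbp2 rose with no overlap of libraries (log2 fold change 4.65 ± 0.24, adjusted p = 1.83e-11 by limma).

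Igfbp3 (chromosome 11, 7206086 to 7213923, minus strand, 5 exons) was highest in the Sox2-GFP embryonic KMF line at 21805 and 20138 and in the ICR KF line at 17981 and 16122. The tail-tip 4F line at passage 8 read 10338 and 7992, the Sox2-GFP embryonic BKF line 7153 and 6859, the ICR BKF line 6701 and 6859, the ear 4F line 5028 and 4838, and the tail-tip BKF line 3527 and 3578. From there the levels of induced lines and other cells mixed. NSC read 1750 (passage 2) and 4710 (passage 5), the tail-tip 4F line at passage 18 2658 and 2150, tail-tip fibroblasts of 1.0 year 2469 and 2336, and the tail-tip KMF line 2326 and 2445. These neighbours did not differ beyond their spread. Tail-tip fibroblasts of 2.5 years at 1134 and 1202 and the Sox2-GFP embryonic KF line at 1122 and 1096 came next, and skin fibroblasts were lowest at 65 and 88. Across the classes the median library was 5864.5 in miNSC and 1168 in fibroblasts. Igfbp3 rose (log2 fold change 3.14 ± 0.13, adjusted p = 1.07e-12 by limma), although the ranges of libraries overlapped. Over the alternatives run, the highest adjusted p of this rise was 0.0185 by limma. Without the skin group the rise was 1.66 for Igfbp3 (adjusted p = 5.57e-08) and 3.57 for Igfbp2 (adjusted p = 6.81e-09).

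The direction of Igfbp4 depended on which fibroblasts were taken, and Igfbp5 was higher in the induced cells. Igfbp4 (chromosome 11, 99041244 to 99054392, plus strand, 4 exons) stood at its highest step, 32713, in all 4 tail-tip fibroblast libraries and in both libraries of the ICR KF line. It read 663 and 574 in skin fibroblasts and 273 (passage 2) and 418 (passage 5) in NSC. Between these extremes, the Sox2-GFP embryonic KMF line read 28060 and 28060, the tail-tip KMF line 13042 and 15156, the 4F line at passage 18 13042 and 10890, the ICR BKF line 11648 and 11648, the tail-tip BKF line 12122 and 10890, and the ear 4F line 10890 and 10890. The lowest induced lines were the Sox2-GFP embryonic BKF line at 9950 and 9950, the 4F line at passage 8 at 8894 and 7992, and the Sox2-GFP embryonic KF line at 4710 and 4568. With the 3 fibroblast groups weighing the same, Igfbp4 was higher in miNSC (log2 fold change 0.51 ± 0.07, adjusted p = 2.12e-06 by limma). This direction rested on the skin group: against the tail-tip fibroblasts without it, the log2 fold change was -1.40 (adjusted p = 4.89e-11). With each group mean as 1 sample the rise was no longer called (adjusted p = 0.706).

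Igfbp5 (chromosome 1, 72857932 to 72874884, minus strand, 4 exons) lies 5457 bp from Igfbp2, end to end. It stood at 32713 in both libraries of the tail-tip 4F line at passage 18, followed by the tail-tip KMF line at 28060 and 24587 and the tail-tip BKF line at 24587 and 12122. The ear 4F line read 17981 and 16122 and the Sox2-GFP embryonic KF line 16122 and 17981, the same 2 steps. The ICR KF line read 15156 and 8657, the 4F line at passage 8 6701 and 9430, the ICR BKF line 7288 and 6986, and tail-tip fibroblasts of 1.0 year 6986 and 6986, with overlap between neighbours. The Sox2-GFP embryonic KMF line at 5242 and 5242 and BKF line at 4710 and 5430 were the lowest induced lines. Skin fibroblasts read 3733 and 3820, NSC 2118 (passage 2) and 3527 (passage 5), and tail-tip fibroblasts of 2.5 years 2178 and 1770. Igfbp5 was higher in miNSC than in fibroblasts (log2 fold change 1.71 ± 0.14, adjusted p = 6e-09 by limma), with overlapping libraries. Over the alternatives run, the highest adjusted p of this difference was 0.0245 by limma.

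In miNSC against fibroblasts, then, 4 members rose, 2 fell and all 6 passed the test, where 76.5% of the genes tested did (42.8% higher and 33.7% lower), and 3 of the 6 (Igfbp2, Igfbp6 and Igfbp7) had no overlap of libraries, where 31.9% of all genes tested had none. No embryonic, ear or ICR fibroblasts are in the series, and the medium of the sampled fibroblasts is not given in the sources used here. Cell class, donor age, strain, tissue and medium cannot be told apart in this contrast. The SE here reflects scatter between the libraries of a group and not between lines, and the tail-tip 4F line enters at both passages. The highest adjusted p over the alternatives run was 8.26e-05 for Igfbp2, 7.06e-10 for Igfbp6 and 1.71e-05 for Igfbp7 by limma. The values of Igfbp3 and Igfbp5 and the lost call of Igfbp4 are given above. The median fold change of all genes was 0.10 on the log2 scale and moved by over 0.1, to -0.01, when each library was divided by a median-of-ratios factor. Under that scaling none of the 6 members changed direction or call in this contrast.

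The closest match of origin was between the 4 tail-tip miNSC groups, with the 4F line entering at passages 8 and 18, and tail-tip fibroblasts of 1.0 year, the same tissue, strain and age. Here 3 members rose and 3 fell, where 66% of all genes passed, 36.7% higher and 29.4% lower. Igfbp2 rose from 2286 in both fibroblast libraries to at least 9431 in the 8 miNSC libraries (log2 fold change 2.87 ± 0.41, adjusted p = 1.17e-05 by limma). Igfbp4 fell from 32713 to at most 15156 (-1.54 ± 0.11, adjusted p = 2.84e-09 by limma), again without overlap. Igfbp5 rose, with overlap, by 1.41 ± 0.23 (adjusted p = 5.43e-05 by limma). The log2 fold change was -10.25 for Igfbp6 and -8.41 for Igfbp7. Group means of Igfbp3 were 9165 in the 4F line at passage 8 and 3552.5 in the BKF line, against 2402.5 in the fibroblasts. In the 4F line at passage 18 (2404) and the KMF line (2385.5) they were close to the fibroblasts. The rise of Igfbp3 over these groups was small, 0.62 ± 0.23 (adjusted p = 0.0246 by limma). It lost its call with median-of-ratios scaling (0.50, adjusted p = 0.0597) and without either fibroblast library (0.66, adjusted p = 0.0889, without replicate 1 and 0.58, adjusted p = 0.134, without replicate 2).

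**Figure D2:**
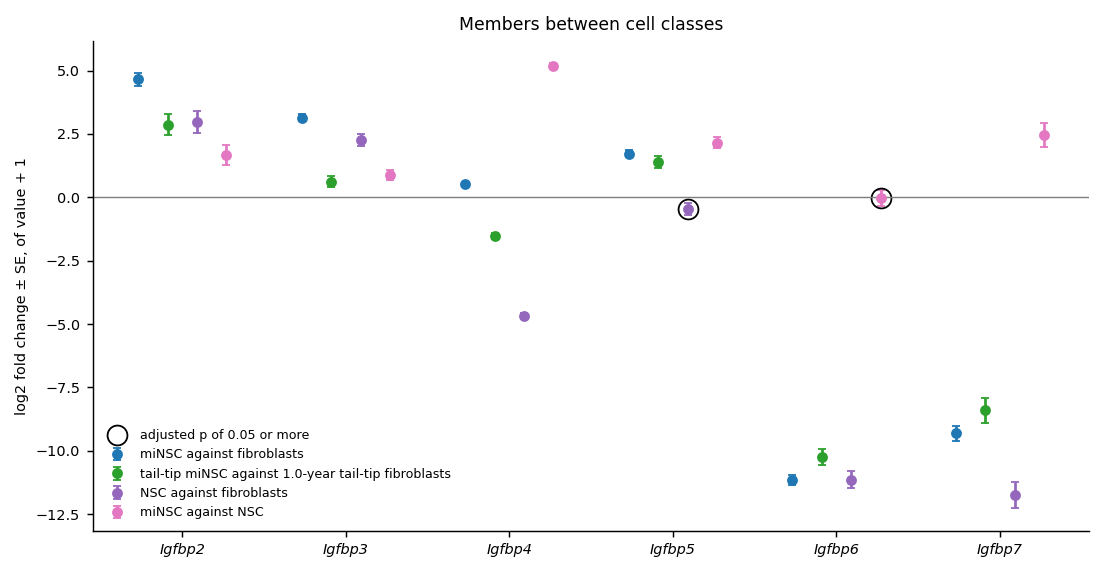
Log2 fold change ± SE of value plus 1 for each member in 4 comparisons of cell classes; circled points had an adjusted p of 0.05 or more. Igfbp6 and Igfbp7 lie far below 0 against fibroblasts in miNSC and in NSC, and Igfbp4 lies below 0 in NSC (-4.68) and in tail-tip miNSC (-1.54) but above 0 in miNSC against all fibroblast groups (0.51), a sign that turns without the skin group.

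The largest difference of a member between miNSC and NSC was in Igfbp4. The NSC libraries read 273 and 418, and no miNSC library was under 4568 (log2 fold change of miNSC against NSC 5.20 ± 0.10, adjusted p = 2.95e-15 by limma). In this comparison 5 members were higher in miNSC, none was lower and Igfbp6 was not called, where 40.6% of all genes passed, 20.9% higher and 19.7% lower. Igfbp5 was higher in every miNSC library, 4710 or more, than in NSC, 3527 or less (2.16 ± 0.22, adjusted p = 1.19e-06 by limma). Igfbp7, higher by 2.46 ± 0.47 (adjusted p = 6.12e-04 by limma), rested on values from 1 to 245 in miNSC against 5 and 0. The differences in Igfbp2 and Igfbp3 depended on 1 NSC library, and with 1 library per passage, passage and library cannot be told apart. They were 1.68 ± 0.39 (adjusted p = 0.00267 by limma) and 0.88 ± 0.21 (adjusted p = 0.00361 by limma) with both NSC libraries, and 0.36 (adjusted p = 0.294) and 0.17 (adjusted p = 0.409) without the passage 2 library. Without the passage 5 library they were 2.998 and 1.595. The difference in Igfbp7 was 3.75 without passage 2 and 1.17 without passage 5 (adjusted p = 0.0484). Against fibroblasts, NSC had 2 members higher and 3 lower, where 65.9% of all genes passed, 34.9% higher and 31.1% lower. Igfbp2 was higher by 2.97 ± 0.43 (4.29 without passage 2 and 1.65 without passage 5) and Igfbp3 by 2.26 ± 0.23 (2.98 without passage 2 and 1.55 without passage 5). Against tail-tip fibroblasts alone, without skin, these differences were 1.89 for Igfbp2 and 0.78 for Igfbp3 (adjusted p = 0.00161 and 0.0117). Igfbp4 was lower by 4.68 ± 0.12 on the log2 scale, and NSC lay below even the skin fibroblasts. Igfbp6 and Igfbp7 were lower with no overlap. Igfbp5 was not called (-0.45 ± 0.24, adjusted p = 0.117 by limma), though it passed as lower without passage 5 (-0.82, adjusted p = 0.0238). NSC had an astrocyte marker sum (Gfap, Aqp4, Aldh1l1 and S100b) of 27754 to 28287 against 293 to 10099 in miNSC, and its part in these differences was not tested. That sum was carried by Aldh1l1 (15156 in both NSC libraries) and Gfap (10338 and 10890). S100b went the other way, at 153 and 92 in NSC against 166 or more in every miNSC library, and Aqp4 (2640 and 1616) overlapped with the 4F line at passage 18 (1918 and 3924).

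Among induced lines of Sox2-GFP mice, embryonic and tail-tip origin were compared over the BKF and KMF cocktails, which both origins share. Of the members 3 were higher in embryonic lines and 2 lower, where 33% of all genes passed, 17.2% higher and 15.8% lower. Igfbp3 was at least 6859 in the embryonic libraries and at most 3578 in the tail-tip ones (log2 fold change 2.06 ± 0.20, adjusted p = 1.33e-06 by limma). Igfbp5 went the other way, at most 5430 in embryonic and at least 12122 in tail-tip libraries (-2.05 ± 0.21, adjusted p = 1.94e-06 by limma). Igfbp7 was higher by 2.28 ± 0.45, with overlap. It read 243 and 245 against 14 and 21 with KMF, but 10 and 14 against 8 and 5 with BKF. Igfbp4 was higher by 0.39 ± 0.10 over both cocktails, which went opposite ways. With BKF it was lower in the embryonic line (9950 and 9950 against 12122 and 10890), and with KMF higher (28060 and 28060 against 13042 and 15156). Igfbp6 passed as lower (adjusted p = 0.00271 by limma) on values of 0 against 1 and 2, and did not pass with a pseudocount of 10 (adjusted p = 0.0607). Igfbp2 differed by 0.94 ± 0.37 (adjusted p = 0.0639 by limma). It passed (adjusted p = 2.59e-04) when the NSC group, whose libraries read 2433 and 15161 in Igfbp2, was left out of the fit. Age and tissue of origin cannot be told apart here, and each origin has 1 line per cocktail.

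Between the ICR and Sox2-GFP embryonic lines, over BKF and KF, Igfbp2, Igfbp3 and Igfbp4 were higher in ICR and the other 3 were not called, where 38.4% of all genes passed, 19.3% higher and 19.1% lower. Igfbp2 was at 32716 in all 4 ICR libraries and at most 24590 in the Sox2-GFP ones (1.52 ± 0.37, adjusted p = 0.00412 by limma). Igfbp4 was at least 11648 against at most 9950 (1.52 ± 0.10, adjusted p = 1.15e-08 by limma). Its difference was large with KF (32713 in both libraries against 4710 and 4568) and small with BKF (11648 in both against 9950 in both). Igfbp3 was higher by 1.95 ± 0.20 (adjusted p = 2.17e-06 by limma), but its BKF libraries overlapped between the strains. Igfbp7 (-0.91) passed as lower in ICR in a fit of these groups alone (adjusted p = 0.0436) and without the NSC group (0.0281). Each strain has 1 line per cocktail, so strain and line cannot be told apart.

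Between the KF and BKF embryonic lines, Igfbp3 and Igfbp4 differed in opposite directions in ICR and in Sox2-GFP cells. With 1 line per cocktail and strain, here and for KMF, the added factor and a difference between lines cannot be told apart. In ICR, Igfbp3 was 17981 and 16122 with KF and 6701 and 6859 with BKF (log2 fold change -1.33 ± 0.29, adjusted p = 0.00453 by limma). In Sox2-GFP it was 1122 and 1096 with KF and 7153 and 6859 with BKF (2.66 ± 0.29, adjusted p = 3.26e-06 by limma). The BKF libraries of the strains thus overlapped, and the KF libraries did not. Igfbp4 read 32713 in both ICR KF libraries and 11648 in both BKF ones (-1.49 ± 0.14, adjusted p = 1.78e-06 by limma). In Sox2-GFP it read 4710 and 4568 with KF and 9950 in both BKF libraries (1.10 ± 0.14, adjusted p = 1.7e-05 by limma). The test of the difference between strains, an interaction term, gave -3.99 ± 0.41 for Igfbp3 (adjusted p = 2.18e-06 by limma) and -2.59 ± 0.20 for Igfbp4 (adjusted p = 1.14e-07 by limma).

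Igfbp7 followed the same signs on low values, 8 and 10 to 2 and 1 in ICR and 4 and 8 to 10 and 14 in Sox2-GFP. Its interaction of -2.96 ± 0.90 (adjusted p = 0.0189 by limma) was lost in 4 of 8 fits that left out a library: ICR BKF replicate 2 (adjusted p = 0.0698), ICR KF replicate 2 (0.0567), Sox2-GFP BKF replicate 2 (0.0637) and Sox2-GFP KF replicate 1 (0.0793). Its fall in ICR (-2.02 ± 0.64, adjusted p = 0.0471 by limma) did not pass with a pseudocount of 10 (-0.72, adjusted p = 0.108) or without any single library. For the interaction 3 members passed, all of them negative, where 32.1% of all genes did, 16.4% negative and 15.8% positive. Igfbp2 (-1.93 ± 0.74, adjusted p = 0.0587 by limma) and Igfbp5 (1.07 ± 0.42, adjusted p = 0.0642 by limma) were not called, and both passed without the NSC group in the fit (adjusted p = 2.13e-04 and 0.0388). Igfbp5 also passed without ICR KF replicate 1 (1.47, adjusted p = 0.0175). Within ICR, 3 members were lower in BKF than in KF, where 13.1% of all genes passed, 6.69% higher and 6.42% lower. Igfbp2 stayed at the same step, where a difference smaller than a step cannot be read. That step lay below the highest value of the data, 92914. Within Sox2-GFP, 3 members were higher in BKF and Igfbp5 was lower, where 37.7% passed, 19.2% higher and 18.5% lower. Igfbp2 rose from 5848 in both libraries to 24590 and 20143 (1.93 ± 0.52, adjusted p = 0.00839 by limma), a call lost without BKF replicate 1 (1.78, adjusted p = 0.0564). Igfbp5 fell from 16122 and 17981 to 4710 and 5430 (-1.75 ± 0.30, adjusted p = 2.34e-04 by limma).

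**Figure D3:**
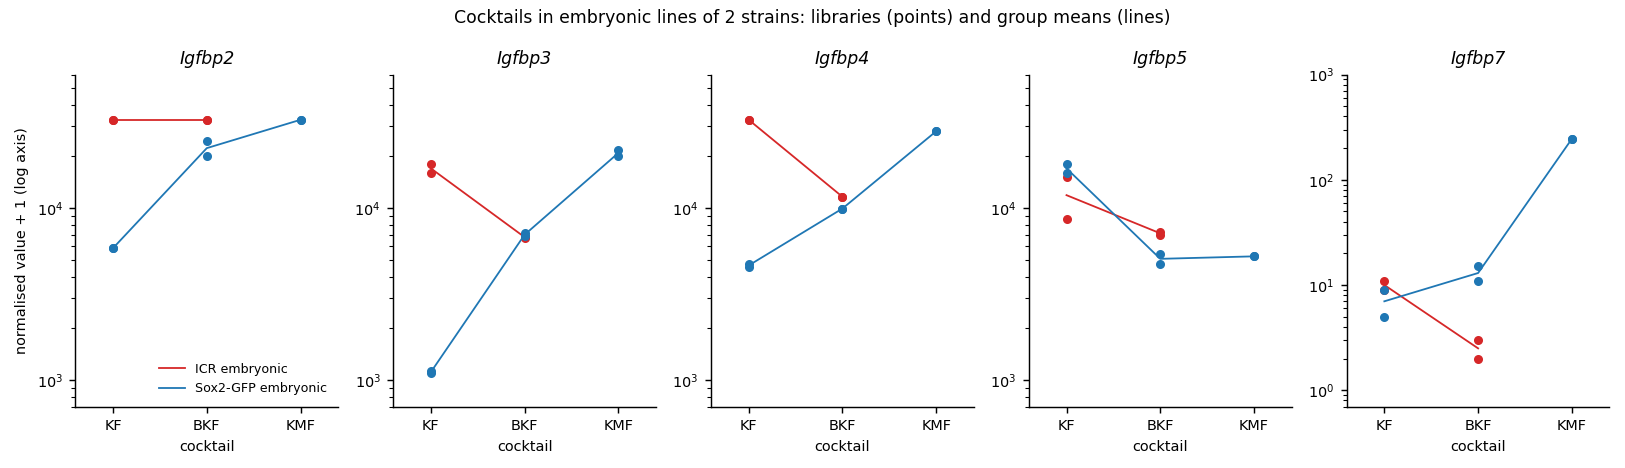
Normalised value plus 1 (log axis) of 5 members in the embryonic lines by cocktail; points are libraries, lines join group means, and red is ICR and blue Sox2-GFP. The ICR lines fall and the Sox2-GFP lines rise from KF to BKF in Igfbp3, Igfbp4 and Igfbp7, and the scale of Igfbp7 differs from the others. No ICR KMF line was sampled.

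In Sox2-GFP embryonic cells, 4 members were higher and 1 lower in the KMF line than in the KF line, where 39.1% of all genes passed, 19.9% higher and 19.2% lower. Igfbp3 rose from 1122 and 1096 to 21805 and 20138 (log2 fold change 4.24 ± 0.29, adjusted p = 2.02e-08 by limma). Igfbp4 rose from 4710 and 4568 to 28060 in both libraries (2.60 ± 0.14, adjusted p = 1.77e-09 by limma). Igfbp2 rose from 5848 to 32716 in both libraries (2.48 ± 0.52, adjusted p = 0.00132 by limma). Igfbp7 rose from 4 and 8 to 243 and 245 (5.19 ± 0.64, adjusted p = 9.31e-06 by limma). Igfbp5 fell from 16122 and 17981 to 5242 in both (-1.70 ± 0.30, adjusted p = 2.8e-04 by limma). Igfbp6 was listed at 0 throughout. The BKF and KMF comparisons share the KF libraries, which were the lowest of the induced libraries in Igfbp2, Igfbp3 and Igfbp4. That KF line also had the highest astrocyte marker sum among miNSC, 9854 and 10099, with Gfap at 8216 and 8417. The embryonic BKF line had sums of 584 and 554 and the KMF line 1456 and 1350. The part of such cells in the differences was not tested.

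In tail-tip lines the BKF and KMF cocktails were not told apart in any member, where 13% of all genes passed, 6.75% higher and 6.22% lower. At an unadjusted p under 0.05 there was 1 member, Igfbp2, by limma. Without the BKF replicate 1 library Igfbp5 passed as lower (-1.12, adjusted p = 0.0176), and without the NSC group in the fit 4 passed: Igfbp2 (adjusted p = 0.00221), Igfbp3 (0.00567), Igfbp4 (0.0284) and Igfbp7 (0.0497). The fit without NSC called 3516 of the 16275 genes tested, against 2110 in the fit of all groups. Igfbp2 read 17984 and 24590 against 9431 and 9431. The 4F line at passage 8, which holds both B and M, had 1 member higher and 3 lower than BKF, where 26.1% of all genes passed (13.1% higher and 12.9% lower), and the same counts against KMF, where 35.5% passed (18.1% higher and 17.4% lower). Against KMF, Igfbp2 (24590 in both libraries against 9431 in both) was not called but passed in 6 alternatives, among them without the NSC group (adjusted p = 1.64e-04), in a fit of these groups alone (0.00368) and with median-of-ratios scaling (0.0469). Igfbp3 was higher than BKF by 1.36 ± 0.29 and than KMF by 1.93 ± 0.29 on the log2 scale, with no overlap. Igfbp5 was lower than BKF by 1.12 ± 0.30 and than KMF by 1.72 ± 0.30 on the log2 scale. Igfbp4 was lower than BKF by 0.45 ± 0.14 and than KMF by 0.74 ± 0.14. Igfbp6, at 0 in both 4F libraries against 1 and 2, passed as lower in both comparisons and in neither with a pseudocount of 10 (adjusted p = 0.208 against BKF and 0.183 against KMF), without either 4F library, or without replicate 2 of the other line. Against BKF the calls of Igfbp4 and Igfbp5 were lost without BKF replicate 1 (adjusted p = 0.148 and 0.159) and without 4F replicate 1 (adjusted p = 0.0548 and 0.116). The call of Igfbp4 was also lost without 4F replicate 2 (adjusted p = 0.162). In a fit of the BKF and 4F groups alone, Igfbp3 (adjusted p = 0.0688), Igfbp4 (0.141), Igfbp5 (0.269) and Igfbp6 (0.103) did not pass. None of the calls against BKF held in that fit.

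The tail-tip 4F line was sampled at 2 passages. From passage 8 to passage 18, 4 members rose and Igfbp3 fell, where 35.1% of all genes passed, 17.5% higher and 17.6% lower. Igfbp5 rose from 6701 and 9430 to 32713 in both libraries (log2 fold change 2.04 ± 0.30, adjusted p = 7.82e-05 by limma). Igfbp3 fell from 10338 and 7992 to 2658 and 2150 (-1.93 ± 0.29, adjusted p = 9.48e-05 by limma). The calls of these 2 held when any of the 4 libraries was left out. Igfbp7 rose from 13 and 9 to 48 and 118 (2.69 ± 0.64, adjusted p = 0.00366 by limma), and not past the threshold without passage 18 replicate 2 (2.05, adjusted p = 0.0615). Igfbp6 went from 0 to 1 and 4, and its call was lost without the same library (adjusted p = 0.108). Igfbp4 rose by 0.50 ± 0.14 (adjusted p = 0.0116 by limma), a call lost without passage 18 replicate 1 (0.37, adjusted p = 0.115) or passage 8 replicate 2 (0.42, adjusted p = 0.0872). In a fit of these 2 groups alone the calls of Igfbp4, Igfbp6 and Igfbp7 were lost (adjusted p = 0.109, 0.151 and 0.0816). Igfbp2 read 24590 in both libraries and then 21808 and 11652 (-0.63 ± 0.52, adjusted p = 0.379 by limma), and passed as lower without the NSC group in the fit (adjusted p = 0.0392). Astrocyte marker sums were 293 and 336 at passage 8 and 3320 and 7627 at passage 18, and their part was not tested. The ear 4F line against this line at passage 8 had Igfbp3 and Igfbp7 lower and Igfbp5 higher, where 27.2% of all genes passed, 13.3% higher and 13.8% lower. Igfbp3 was lower by 0.88 ± 0.29 on the log2 scale, Igfbp7 by 1.90 ± 0.64, and Igfbp5 was higher by 1.10 ± 0.30. Each of these 3 calls was lost when the passage 8 replicate 1 library was left out (adjusted p = 0.203 for Igfbp3, 0.177 for Igfbp7 and 0.123 for Igfbp5) or ear replicate 1 (0.104, 0.305 and 0.0772). The call of Igfbp3 was also lost without ear replicate 2 (0.124), that of Igfbp7 without passage 8 replicate 2 (0.0704) and with a pseudocount of 10 (0.0553), and all 3 in a fit of these 2 groups alone.

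The fibroblast groups differ in donor age and donor tissue. Each is 1 group of 2 libraries, so age or tissue cannot be told apart from the animal or the culture. In tail-tip fibroblasts of 2.5 against 1.0 years, 2 members fell, where 11% of all genes passed, 5.63% higher and 5.41% lower. Igfbp5 fell from 6986 in both libraries to 2178 and 1770 (log2 fold change -1.83 ± 0.30, adjusted p = 9.48e-04 by limma). Igfbp3 fell from 2469 and 2336 to 1134 and 1202 (-1.04 ± 0.29, adjusted p = 0.0278 by limma). The call of Igfbp3 was lost without any single library of the 4, with adjusted p from 0.105 to 0.138. Igfbp2 went from 2286 in both libraries to 1106 and 1248 and was not called (-0.96 ± 0.52, adjusted p = 0.289 by limma), but passed without the NSC group in the fit (adjusted p = 0.00914). Igfbp4 stood at its highest step in all 4 libraries. Of the 4 macrophage and 4 endothelial markers listed, 3 each had values. The macrophage sum was 253 and 240 at 1.0 year and 800 and 786 at 2.5 years. The endothelial sum was 191 and 180 and then 96 and 85. In skin the sums were 314 and 289 for macrophage and 144 and 95 for endothelial markers, and the part of such cells in either comparison was not tested. In skin against tail-tip fibroblasts of 2.5 years, 3 members were lower and 2 higher, where 26.6% of all genes passed, 12% higher and 14.5% lower. Igfbp4 went from 32713 to 663 and 574 (-5.73 ± 0.14, adjusted p = 3.52e-14 by limma). Igfbp3 went from 1134 and 1202 to 65 and 88 (-3.93 ± 0.29, adjusted p = 2.72e-08 by limma). Igfbp2 went from 1106 and 1248 to 138 and 212 (-2.77 ± 0.52, adjusted p = 8.19e-04 by limma). Igfbp6 went the other way, from 2034 and 1893 to 6702 and 6320 (1.73 ± 0.41, adjusted p = 0.00513 by limma). Igfbp5 was higher by 0.94 ± 0.30 (adjusted p = 0.027 by limma), a call lost without any single library (adjusted p from 0.0547 to 0.156). Igfbp7 read 16127 and 17984 against 5540 and 5848 and was not called (1.58 ± 0.64, adjusted p = 0.0788 by limma), but passed without the NSC group in the fit (adjusted p = 0.0122). The skin libraries had Tubb3, a neuronal tubulin, at 2586 and 2360 against 233 and 188, and its part was not tested.

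Among the 10 miNSC groups, Igfbp2 and Igfbp3 levels went together and Igfbp5 went against them, as a description over group means of log2(value + 1). Pearson's r was 0.893 for Igfbp2 with Igfbp3, 0.754 for Igfbp3 with Igfbp4, -0.726 for Igfbp3 with Igfbp5 and -0.613 for Igfbp2 with Igfbp5. The 2 lines highest in Igfbp3, Sox2-GFP embryonic KMF and ICR KF, had Igfbp5 between 5242 and 15156, and the 2 with the highest Igfbp5 had Igfbp3 of at most 2658. The lines share cocktails, strains and, for the 4F passages, cells, so the 10 points are not independent. Over all 14 groups r was 0.918 for Igfbp6 with Igfbp7 and 0.912 for Igfbp2 with Igfbp3. The sign for Igfbp5 turned there, with r of 0.169 with Igfbp3 and 0.452 with Igfbp2.

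**Figure D4:**
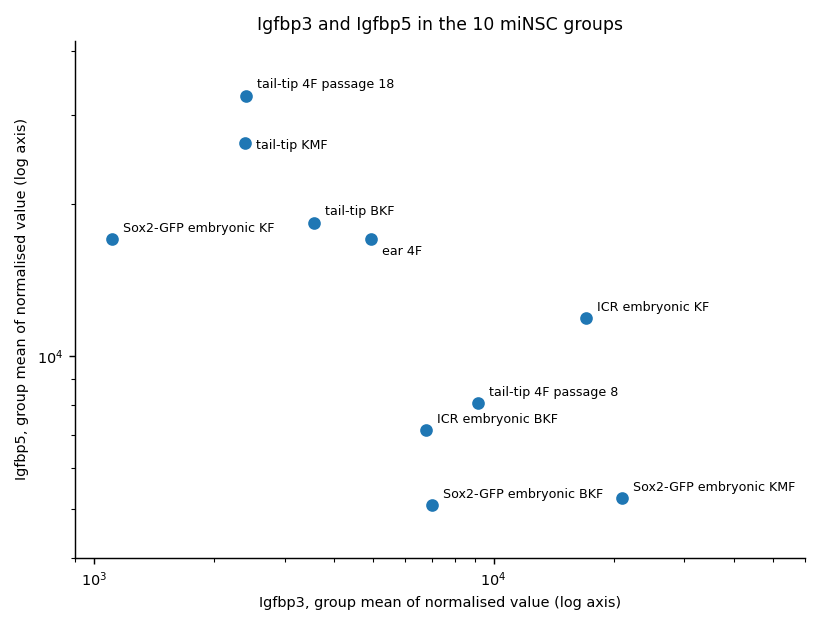
Group means of Igfbp5 against Igfbp3 in the 10 miNSC groups, both on log axes of the normalised value. The lines high in Igfbp3 lie low to middle in Igfbp5, the tail-tip 4F line has more Igfbp3 and less Igfbp5 at passage 8 than at passage 18, and the Sox2-GFP embryonic KF line is the lowest in Igfbp3.

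Of the ligands and receptors listed, Igf2, Insrr, Igfals and Igfbp1 have no value in the table used and were not analysed here. Of the 4 genes tested, 1 was higher and 2 were lower in miNSC than in fibroblasts, with a median log2 fold change of -0.30 against 0.10 for all genes, of which 42.8% were higher and 33.7% lower. Igf1, the ligand, read 211 to 534 in fibroblasts, 0 to 47 in miNSC and 9 and 0 in NSC (log2 fold change in miNSC -5.58 ± 0.76, adjusted p = 4.13e-06 by limma). Igf1r, the signalling receptor, was not called (0.12 ± 0.11, adjusted p = 0.347 by limma), with 1166 to 2763 in miNSC and 1290 to 2348 in fibroblasts. Igf2r, which clears IGF2, was lower by 0.71 ± 0.09, and the insulin receptor gene Insr was higher by 0.72 ± 0.08. Igf2r fell and Insr rose under both scalings.

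Of the proteases that cut IGF binding proteins and their inhibitors, 7 of 8 were tested, with 4 lower, 1 higher and 2 not called in miNSC against fibroblasts (median -0.47 against 0.10), where 76.5% of all genes passed, 33.7% lower and 42.8% higher. Pappa, the gene of PAPP-A, read 374 to 1934 in fibroblasts and was listed at 0 in NSC and in every miNSC group except the tail-tip 4F line at passage 8, which read 36 and 26. Its log2 fold change in miNSC was -9.63 ± 0.09 (adjusted p = 4.34e-21 by limma). Skin fibroblasts, at 432 and 374, were lowest in Pappa among fibroblasts, as they were in Igfbp4. The related gene Pappa2 read at most 52 and was too low to be tested. The serine protease genes Htra1 and Htra3 were lower by 0.85 ± 0.04 and 2.05 ± 0.17 on the log2 scale. Stc2, whose protein inhibits PAPP-A, was lower by 0.47 ± 0.05, and its relative Stc1 was not called. Adam12, a metalloprotease that cuts Igfbp3 and Igfbp5 proteins, was higher by 0.48 ± 0.18 (adjusted p = 0.0258 by limma), a call lost with median-of-ratios scaling (adjusted p = 0.0728) and against tail-tip fibroblasts alone (adjusted p = 0.073). Adam9 was not called.

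Among the induced lines, Adam12 was lowest in the Sox2-GFP embryonic KF line, 384 and 368, where Igfbp3 was lowest too. It read 3857 and 4840 in the BKF line and 7518 and 7802 in the KMF line (log2 fold changes 3.52 ± 0.40 and 4.35 ± 0.40, adjusted p = 4.99e-06 and 4.5e-07 by limma). From passage 8 to 18 of the tail-tip 4F line, Pappa went from 36 and 26 to 0, Adam12 from 4078 and 2943 to 1384 and 942, and Htra3 from 18 and 24 to 122 and 67. All 7 proteases and inhibitors passed the test there, 3 higher and 4 lower, where 35.1% of all genes passed.

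**Figure D5:**
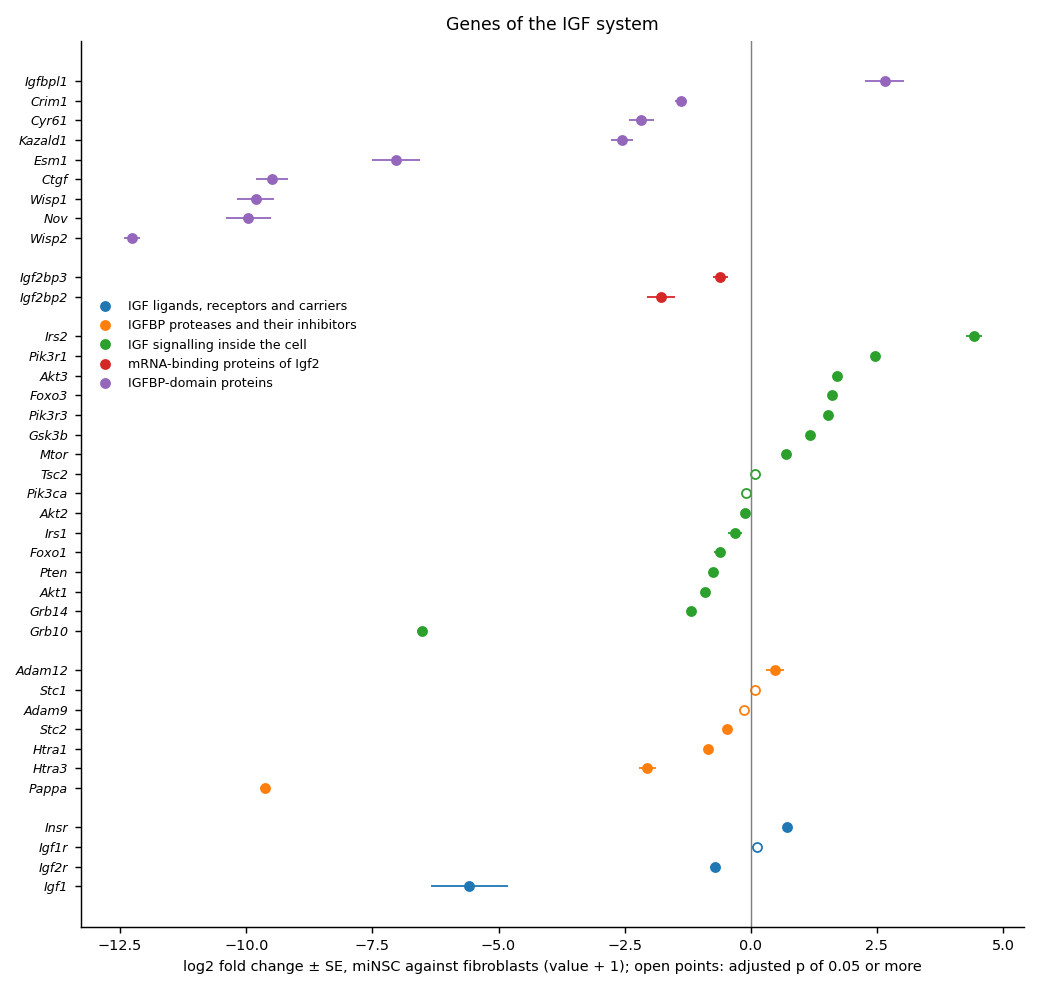
Log2 fold change ± SE of value plus 1 in miNSC against fibroblasts for the tested genes of the IGF system, coloured by list; open points had an adjusted p of 0.05 or more. Pappa (-9.63), Igf1 (-5.58) and Grb10 (-6.51) lie far below 0, Irs2 (4.42) lies highest, and 8 of 9 genes of IGFBP-domain proteins lie below 0.

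Of 16 genes of IGF signalling inside the cell, 7 were higher and 7 lower in miNSC, with a median log2 fold change of -0.001 against 0.10 for all genes, of which 42.8% were higher and 33.7% lower. The 4 with the smallest adjusted p were Grb10, Foxo3, Grb14 and Akt1, where Grb10 and Grb14 encode adaptors that bind the activated receptors. Grb10 was lower by 6.51 ± 0.10, Grb14 by 1.19 ± 0.03 and the kinase gene Akt1 by 0.90 ± 0.03 on the log2 scale, and the transcription factor gene Foxo3 was higher by 1.61 ± 0.05. Irs2, a docking protein of the IGF1 and insulin receptors, was chosen after its values were seen: it read 47 to 94 in fibroblasts and 461 to 6166 in miNSC (4.42 ± 0.15, adjusted p = 6.66e-14 by limma), and the highest values, 6166 and 5950, were in the Sox2-GFP embryonic KF line. Both mRNA-binding protein genes tested, Igf2bp2 and Igf2bp3, were lower, by 1.78 ± 0.27 and 0.60 ± 0.14. Of 9 tested genes of proteins that share the IGFBP domain, 8 were lower and 1 higher (median -7.03 against 0.10), where 33.7% of all genes were lower and 42.8% higher. Wisp2 read 2458 to 8896 in fibroblasts and at most 1 in miNSC, and Ctgf, Wisp1 and Nov were lower, with log2 fold changes of -9.49, -9.82 and -9.96. Igfbpl1, the 1 that was higher and also chosen after its values were seen, rested on values of 0 to 16 in miNSC against 0 to 1, and reached 30 and 164 in NSC.

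The genes most like each member over the 14 group means (Pearson's r of log2(value + 1), a description) were named by a fixed rule. They were Chst7 (0.984), Nptx1 (0.972) and Ssbp4 (0.962) for Igfbp2, and Grhl1 (0.94), Chst7 (0.94) and Rapgef4 (0.935) for Igfbp3. Chst7, a sulfotransferase gene, thus stood on both lists, with group means of 300 to 2790 in miNSC and at most 185.5 in fibroblasts. For Igfbp4 they were Pcsk6 (0.922), Spats2l (0.862) and Slc29a1 (0.843), and for Igfbp5 Ndufv3 (0.936), Nubpl (0.893) and Nit1 (0.892). Pcsk6, a proprotein convertase gene, had group means of 243.5 to 678 in miNSC, 67.5 to 897 in fibroblasts and 80 in NSC. For Igfbp6 they were Prl2c3 (0.994), Rpl39l (0.993) and Mirg (0.993), and for Igfbp7 Ugt1a7c (0.963), Tnfsf12 (0.96) and Atp8b1 (0.955). Prl2c3 and Ugt1a7c have near-identical relatives, among which reads could have been split. The groups of fibroblasts set these last values, since the 3 genes named for Igfbp6 had group means of at most 1 in miNSC.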

How the data were processed

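The authors deposited 1 table of normalised scores, whole numbers per gene and library. RSEM, Bowtie2 2.0 and mm10 are named without a role, per the submitters' processing notes, and the normalisation is not given in the sources used here. The unit was therefore kept as score, which is neither a count nor a known rate, and no count test was run. Per the labels' protocols, messenger RNA was selected with oligo(dT) beads and copied with random hexamers.

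Here values were changed to log2(value + 1). The test took the 16275 of 17295 genes whose mean over all 28 libraries reached 10. A single limma 3.58.1 model (R 4.3.3) with 1 term per group and a variance trend gave 17 comparisons, with Benjamini-Hochberg adjustment over all genes and a threshold of 0.05. Where replicates held equal values in every group of a fit, limma offset the zero variance away from zero. The code was tested on simulated data. Genes named were the 6 members, the listed ligands, receptors, proteases and inhibitors, the 4 smallest adjusted p of other lists, and the 3 most similar genes per member. Irs2 and Igfbpl1 fall outside this rule and were chosen after their values were seen, as were single markers. The members, lists and alternatives were chosen with earlier results of these data known. Gene positions came from GENCODE M21 and upstream sequences from RefSeq on GRCm38.p6, which held windows for all 6 members. No protein sequences are shown. Replicate numbers were checked and do not pair the samples. Figures were drawn with matplotlib 3.10.9 in Python 3.11.15 with pandas 2.3.3. Depth is unknown, so no counting interval or detection limit is given. 1 neural stem marker is not reported here.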

Additional observations from a re-analysis of the deposited data

Results flagged for a closer look

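The difference of BKF from KF was not the same in the ICR and Sox2-GFP embryonic lines by an interaction term in 3 members. The difference in ICR minus that in Sox2-GFP was -3.99 on the log2 scale for Igfbp3, -2.59 for Igfbp4 and -2.96 for Igfbp7. For Igfbp3 and Igfbp4 both library pairs moved down in ICR and up in Sox2-GFP, and the call held in all 8 fits that left out a library. For Igfbp7, at values of 14 or less, the call was lost in 4 of those 8. Each strain has 1 line per cocktail, so an effect of strain, cocktail or both cannot be told apart from a difference between lines.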

How the results depend on the processing

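Over 17 comparisons the 6 members gave 102 results, of which 68 were called. The share of all genes tested that were called ran from 11% (tail-tip donor age) to 76.5% (miNSC against fibroblasts) per comparison. Of the 68, 47 kept their direction and call in every alternative run, and 53 in every one that left out no library. Of 1590 alternative values, 1474 kept direction and call, 63 lost the call, 43 gained it and 10 changed sign. The cause of these changes was not tested. Igfbp4 in miNSC against fibroblasts was 0.511 with group means as samples, no longer called, and -1.397 with tail-tip fibroblasts only, a setting chosen after seeing the data. Igfbp3 in tail-tip miNSC against 1.0-year tail-tip fibroblasts was 0.496 with median-of-ratios scaling and 0.57 to 0.663 without a library. Igfbp6 in miNSC against NSC, never called, was 0.009 with a pseudocount of 10 and -0.525 to 0.475 without a library. Igfbp2 in the interaction was -1.928, not called, and passed at the same size with a mean of at least 100, with only the groups compared, and in both fits without NSC (the fit without the block was chosen after seeing the data). The interaction of Igfbp5 passed at 1.173 with median-of-ratios scaling, ran from 0.664 to 1.472 without a library, and passed at 1.068 in both fits without NSC. That of Igfbp7 ran from -3.383 to -2.535. Without a library, miNSC against NSC ran from 0.359 to 2.998 for Igfbp2 and from 0.167 to 1.595 for Igfbp3. Igfbp5 ran from -0.815 to -0.08 in NSC against fibroblasts and from -0.24 to 0.164 in ICR against Sox2-GFP embryonic lines, where it was never called. Depth is unknown, so what it limits cannot be given. Replicate numbers do not pair the samples: over 78 pairs of groups, the correlation of deviations ran from -0.055 to 0.071. A fit with the replicate number as a block, which also leaves out NSC, called 3528 genes for BKF against KMF in tail-tip lines and 2978 for tail-tip donor age. The same samples without the block gave 3516 and 2964, against 2110 and 1797 in the fit of all groups. No paired analysis was possible for the NSC comparisons because the NSC titles carry no replicate number. With only the groups compared, 2169 genes were called for passage 18 against 8 (5716 otherwise), 561 for 4F passage 8 against BKF (4240) and 430 for BKF against KMF (2110). Without a library the calls ran from 2726 to 3885 for 4F passage 8 against BKF, 1307 to 1474 for BKF against KF in ICR (2134), 894 to 2867 for BKF against KMF, 2824 to 3492 for ear against tail-tip 4F (4419), and 852 to 1257 for tail-tip donor age.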
